A study of Mus musculus with 44 samples.

Results

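The nuclear pore complex genes described here were 32 of the 55335 genes of the deposited count table, which holds 21899 protein-coding genes. They were the protein-coding genes whose symbol begins with Nup and a number, together with Nupl1, Nupl2, Pom121, Ndc1, Aaas, Seh1l, Sec13, Ranbp2, Tpr, Rae1 and Ahctf1. The rule itself uses names and no measured value, but it was set with earlier results of these data known.

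The counts came from translating ribosome affinity purification (TRAP), which captures mRNA on tagged ribosomes, in the hippocampus of male Emx1-NuTRAP mice. In these mice Cre recombinase from the Emx1 locus switches on the NuTRAP allele, which tags a ribosomal protein and the nuclear envelope of Emx1-lineage cells. These are mostly excitatory neurons, and they also include glia. ELE (early-life exercise) mice were housed in pairs with access to a wheel between postnatal days 21 and 41, sedentary mice were housed in pairs without one, and all were killed the next day. In SIT (simultaneous isolation of RNA and nuclei), both hippocampi of a mouse were combined, and RNA was captured from the liquid left once the nuclei had been drawn out. In separate isolation, the hippocampus of one hemisphere was used for RNA alone. The table holds 4 ELE and 4 sedentary SIT libraries, and 3 ELE and 3 sedentary libraries from each hemisphere for separate isolation. Each library came from a different mouse.

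Between 45895097 and 65767802 read pairs were counted per library (median 54422374.5). The SIT comparison used the 3 ELE and 2 sedentary libraries that the study compared, and all 8 are given beside it. Of the 3 libraries left out, those of the sedentary mice numbered NT7.2.3 and NT7.2.4 carried 8.64% and 9.64% of their counts on mitochondrial genes. The other SIT libraries carried 0.195% to 0.523%, and the separate libraries 0.0704% to 0.122%. The 6 interneuron markers summed to 816 and 854 CPM (counts scaled to library size) in the same 2 libraries and to between 40.5 and 108 CPM in the other 18, and the 6 microglia markers to 160 and 173 CPM against 1.75 to 5.14 CPM. The 6 excitatory neuron markers summed to between 6609 and 10022 CPM in all 20 libraries, and the 6 astrocyte markers to between 1632 and 5288 CPM. In tissue of this kind, fewer cells of a type and less RNA per cell cannot be told apart.

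The nuclear pore complex is the channel through which proteins and RNA cross the nuclear envelope. It is built from many copies of a set of proteins, the nucleoporins, arranged in stacked rings around a central channel. Nucleoporins with repeats of phenylalanine and glycine (FG) fill that channel and bind the importins and exportins that carry cargo through it, while the small GTPase Ran sets the direction of transport. In neurons, which do not divide, the scaffold proteins are known for turning over very slowly.

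The members were grouped by their place in the pore. The Y complex, the outer scaffold ring, had 9 members (Nup107, Nup133, Nup160, Nup85, Nup37, Nup43, Seh1l, Sec13 and Ahctf1). The inner ring had 5 (Nup93, Nup155, Nup188, Nup205 and Nup35). The membrane ring, which holds the pore in the envelope, had 4 (Pom121, Ndc1, Nup210 and Aaas). The central channel had 3 (Nup62, Nup54 and Nupl1), and Nup98 with its partner in mRNA export, Rae1, formed a group of 2. The nuclear basket had 3 (Nup153, Tpr and Nup50), and the cytoplasmic filaments had 4 (Ranbp2, Nup214, Nup88 and Nupl2). Nup210l and Nup62cl are paralogues that are not known parts of the somatic pore.

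Levels between genes were compared per kilobase of exon, as RPKM with TMM-adjusted library sizes. The members' median RPKM over the 20 libraries ran from 15.1 for Pom121 to 0.45 for Nup37 among the 29 members of the somatic pore that had enough counts to be tested. The median for Pom121 lay above those of 81.8% of the protein-coding genes with counts, and the median for Nup37 above those of 32.5%. Next after Pom121, an anchor of the pore in the membrane, came Rae1 at 14.8, Nup62 at 13.0, Sec13 at 11.7, Nup50 at 10.8 and Seh1l at 8.99. The ranges of Pom121 (11.1 to 18.8 RPKM), Rae1 (11.8 to 17.6), Nup62 (8.29 to 20.8) and Sec13 (10.1 to 18.0) overlapped, so that these neighbours did not separate. The order differed between isolations. In the SIT libraries the mean of Rae1 (15.4 RPKM in ELE and 13.9 in sedentary mice) was above that of Pom121 (12.6 in both), and in SIT ELE mice those of Nup62 (16.5) and Sec13 (13.8) were as well.

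The level did not follow the group. Within the Y complex, whose proteins share 1 assembly, Sec13 at 11.7 RPKM and Nup160 at 0.566 RPKM differed widely, and their ranges over the libraries (10.1 to 18.0 and 0.356 to 0.896) did not overlap. Sec13 is also a coat protein of the vesicles that leave the endoplasmic reticulum, and Seh1l is also a subunit of a complex that controls mTORC1. The inner ring lay between 3.28 RPKM (Nup93) and 0.934 RPKM (Nup155). In the nuclear basket, Nup50 was at 10.8, Tpr at 5.15 and Nup153 at 3.58 RPKM. In the cytoplasmic filaments, Ranbp2 was at 5.27, Nup88 at 3.23, Nup214 at 2.18 and Nupl2 at 1.99 RPKM. These levels are of ribosome-bound mRNA and say nothing of the amount of protein.

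**Figure D1:**
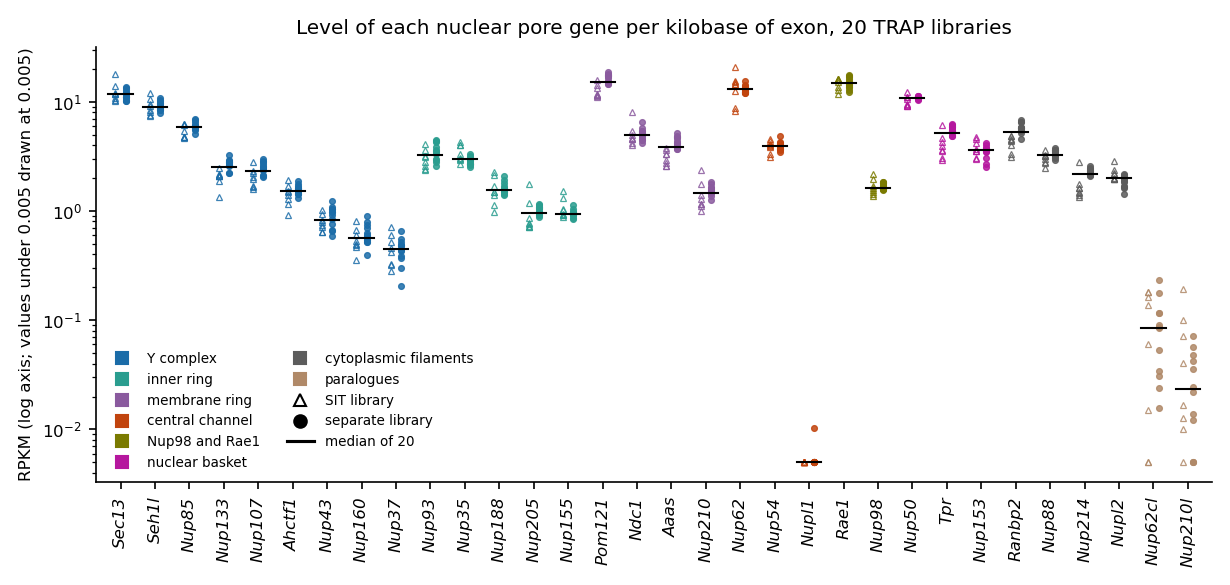
RPKM of the 32 nuclear pore complex genes on a log axis, with 1 point per library (open triangles, 8 SIT libraries; filled circles, 12 separate libraries; bar, median of the 20). The genes are grouped and coloured by subcomplex; by median, Pom121 at 15.1 RPKM is highest, and Nupl1, Nup62cl and Nup210l lie under 0.1 RPKM.

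Nup62cl and Nup210l were near the floor, at medians of 0.0857 and 0.0232 RPKM and at most 30 and 60 counts in a library. Nupl1, a channel protein also called Nup58, had counts in 1 library of 20, and these were 2. Its annotated exons on chromosome 14 (GRCm38 60184612 to 60251431, minus strand, 3602 bases) share 1756 bases with those of Gm49336, a protein-coding gene on the same strand (60205282 to 60251507). The authors' counting assigned no read that matched 2 genes alike. Gm49336 had between 1828 and 4098 counts in every library, and the 532 residues of the Nupl1 translation were identical to the first 532 of the 587 residues that Gm49336 encodes, with 14 FG dipeptides in Gm49336 and 11 in Nupl1. A further 241 bases of Nupl1 overlap Atp8a2 and 105 a microRNA, on the same strand, and the rest of its exons had almost no counts either. Reads of the coding sequence that both genes share could not be counted for Nupl1, and its level is not read from these counts. The values of Gm49336, which is no member, are given beside the channel genes below. Shorter overlaps on the same strand were annotated for Nup188 (284 bases with Gm28038), Ahctf1 (155 with Kif28), Nup35 (131 with Dusp19), Nup62 (97 with Il4i1) and Nup214 (14 with a microRNA).

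The main question was whether ELE changed these genes in either isolation. In SIT, 31 members had enough counts to be tested and none was called by edgeR's quasi-likelihood test, where called means an unadjusted p under 0.05 and a change of more than 1.31-fold. Of all 18238 genes tested, 3.65% were called. None of the members had an unadjusted p under 0.05, against 5.48% of all genes, and DESeq2 called none. The lowest adjusted p of a member was 0.915, and no gene of the whole table had an adjusted p under 0.05. The standard errors of the log2 differences of the 29 somatic pore members were between 0.10 and 0.47 (median 0.17), so differences of the size seen here could not be told from 0 with 3 mice against 2.

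Most estimates in SIT were positive. There the ELE mean was above the sedentary mean, on the log2 scale of the fit, for 25 of the 31 members, with a median of 0.09 and a range from -0.47 (Nup62cl) to 0.53 (Nup210l). Over all genes tested, the median was 0.0012 and 50.2% were positive. In lists given below, 18 of 23 importins and exportins and 9 of 11 mRNA export genes were positive. So were 5 of 6 Ran cycle genes and 5 of 10 genes of the lamina and inner membrane. With 1 library left out at a time, the members' median ranged from 0.05 (without TG7.4.1) to 0.19 (without NT6.306). With all 8 SIT libraries, 19 of 31 members were positive (median 0.09), among them 3 of 5 in the inner ring and 5 of 9 in the Y complex. Leaving out 1 of the 8 took that median from -0.014 to 0.19, so it could change sign. By group, in the 5 libraries, the medians were 0.14 for the cytoplasmic filaments (4 of 4 positive), 0.15 for the nuclear basket (2 of 3), 0.12 for the 2 channel genes tested (both positive), 0.12 for the membrane ring (3 of 4), 0.08 for the inner ring (5 of 5), 0.08 for the Y complex (6 of 9) and 0.05 for Nup98 and Rae1 (both). The values of 10 members did not overlap between ELE and sedentary SIT libraries, 9 of them higher in ELE, where 22.1% of all genes did not overlap.

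The estimates with the smallest p-values of their groups were as follows in SIT. Aaas encodes ALADIN, the protein of the membrane ring that is mutated in triple A syndrome. It had 9.28, 9.19 and 10.0 CPM in the ELE libraries and 7.17 and 7.28 CPM in the sedentary ones. The groups did not overlap, and the log2 difference was 0.39 ± 0.19 (SE; adjusted p = 0.915). Nup93, the hub of the inner ring, had 13.7, 11.9 and 13.4 CPM in ELE and 10.2 and 10.3 CPM in sedentary libraries. These groups were apart as well, with a log2 difference of 0.34 ± 0.17 (SE; adjusted p = 0.932).

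Nup153, which anchors the nuclear basket, had 25.0, 26.1 and 24.8 CPM in ELE and 21.6 and 21.1 CPM in sedentary SIT libraries, without overlap. Its log2 difference was 0.25 ± 0.14 (SE; adjusted p = 0.944). Nup107, a stem protein of the Y complex, had 7.48, 6.52 and 10.7 CPM in ELE against 6.1 and 6.3 CPM in sedentary libraries. One ELE mouse, TG7.4.2, stood well above the others, and the log2 difference was 0.41 ± 0.25 (SE; adjusted p = 0.957). Without that mouse it was 0.17. Nupl2, a filament protein also called Nup42 that binds the mRNA export factor Gle1, had 8.92, 10.7 and 8.12 CPM against 7.42 and 7.59 CPM, a log2 difference of 0.30 ± 0.21 (SE; adjusted p = 0.965) that came to 0.19 without the ELE mouse TG7.4.1.

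Nup62, whose FG repeats line the channel, had 43.5, 43.7 and 41.4 CPM in ELE and 35.6 and 41.3 CPM in sedentary SIT libraries. The lowest ELE and the highest sedentary library were nearly level, and the log2 difference was 0.16 ± 0.12 (SE; adjusted p = 0.973). It was 0.05 without NT6.305 and 0.27 without NT6.306, the sedentary libraries. Gm49336, the gene that shares its sequence with Nupl1, had 69.4, 69.2 and 57.3 CPM in ELE and 54.4 and 55.7 CPM in sedentary libraries. Its log2 difference was 0.25 ± 0.12 (SE; adjusted p = 0.930). Rae1 had 35.1, 40.9 and 40.2 CPM against 32.5 and 40.9 CPM, with overlap and a log2 difference of 0.08 ± 0.14 (SE; adjusted p = 0.999).

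**Figure D2:**
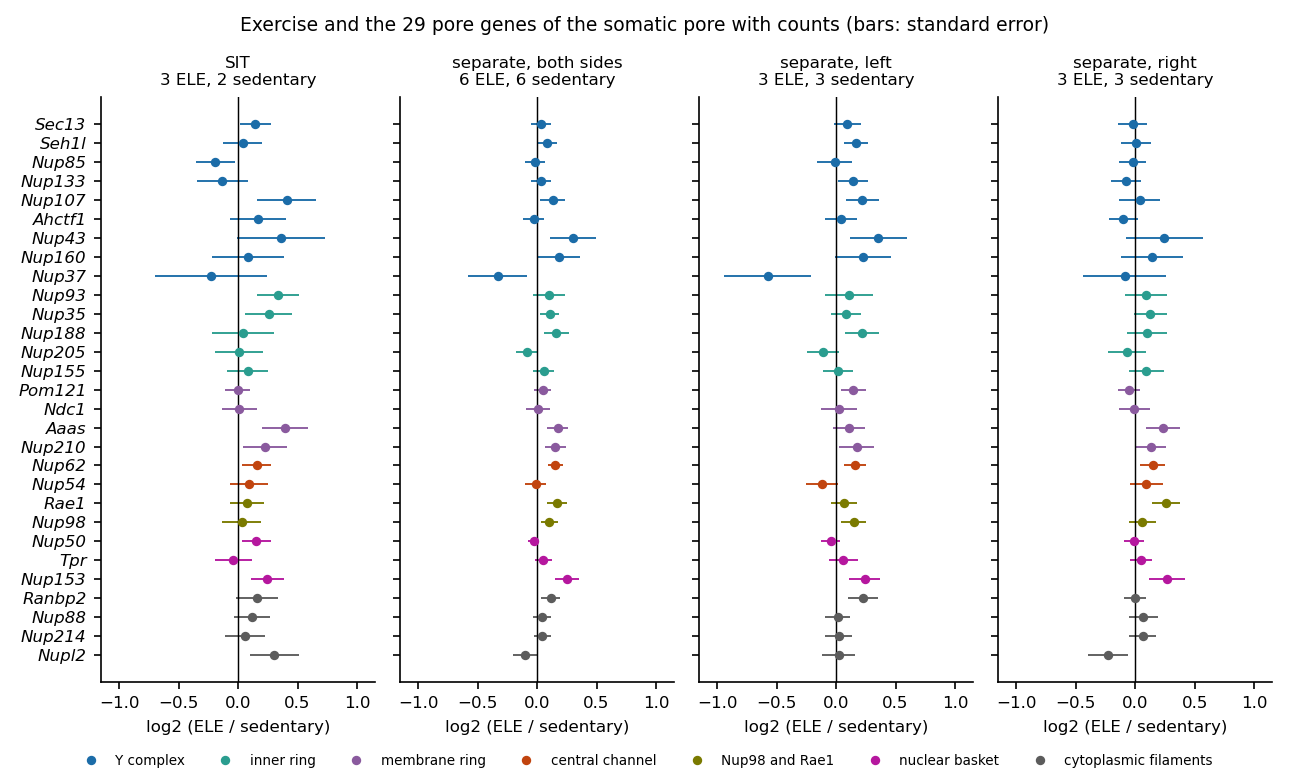
Log2 difference between ELE and sedentary mice (x axis; point, edgeR estimate; bar, standard error) for the 29 members of the somatic pore that were tested, in SIT, in the 12 separate libraries and in each hemisphere by itself. In SIT 24 of the 29 points lie right of 0, in the separate libraries 22, on the left 24 and on the right 19; none of the members was called.

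Over the 12 separate libraries, with hemisphere in the model, edgeR again called none of the 31 members tested, while it called 2.01% of 18810 genes, and DESeq2 called none. An unadjusted p under 0.05 was reached by 2 members, Nup153 and Nup62, against 5.31% of all genes. The lowest adjusted p of a member was 0.924. Estimates were positive for 22 of 31 members (median 0.05, or 0.03 to 0.08 with 1 library left out, range -1.17 to 0.30), and over all genes the median was 0.00022. Estimates were also positive for 18 of 23 importins and exportins and 5 of 6 Ran cycle genes. For mRNA export they were so for 6 of 11 genes, and for the lamina and inner membrane for 7 of 10. Standard errors were smaller than in SIT, between 0.05 and 0.25 (median 0.09) for the 29 somatic pore members. None of the members had ELE and sedentary values apart over both hemispheres, where 0.292% of all genes did.

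Nup153 had 25.2, 25.7 and 29.5 CPM in the left ELE libraries and 24.2, 18.9 and 24.9 CPM in the left sedentary ones. On the right it had 26.2, 28.0 and 24.9 CPM in ELE and 26.6, 21.5 and 17.7 CPM in sedentary libraries. The left groups did not overlap and the right groups did, with 1 sedentary mouse inside the ELE range. The log2 difference over both sides was 0.25 ± 0.10 (SE; adjusted p = 0.924), a value close to that in SIT.

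Nup62 had 39.0, 36.9 and 44.3 CPM in left ELE and 37.4, 35.3 and 34.8 CPM in left sedentary libraries. On the right it had 40.8, 34.5 and 40.0 CPM in ELE and 35.0, 35.6 and 33.9 CPM in sedentary libraries. On each side 1 ELE library lay within the sedentary range. The log2 difference was 0.15 ± 0.06 (SE; adjusted p = 0.924), and it was 0.16 on the left and 0.15 on the right when each side was fitted by itself. With 1 library left out, these ranged from 0.08 to 0.22 and from 0.10 to 0.21. Gm49336 had a log2 difference of 0.14 ± 0.08 (SE; adjusted p = 0.924).

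Rae1, which binds Nup98 and takes part in mRNA export, had 32.5, 36.7 and 42.6 CPM in left ELE and 36.0, 35.9 and 34.6 CPM in left sedentary libraries. On the right it had 43.6, 44.9 and 39.6 CPM in ELE and 31.6, 40.8 and 34.6 CPM in sedentary libraries. The spread among left ELE mice exceeded the difference there, and the log2 difference over both sides was 0.17 ± 0.08 (SE; adjusted p = 0.924). Aaas had 10.8, 13.4 and 12.2 CPM against 11.7, 10.4 and 11.6 CPM on the left, and 13.4, 12.9 and 14.5 CPM against 10.4, 13.2 and 11.2 CPM on the right (ELE first). ELE and sedentary values overlapped on both sides, with a log2 difference of 0.17 ± 0.09 (SE; adjusted p = 0.924).

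In the other groups the smallest p-values belonged to Nup43, Nup188 and Ranbp2. Nup43, a peripheral subunit of the Y complex with few counts, had 2.78, 2.66 and 2.48 CPM in left ELE against 1.72, 2.51 and 1.94 CPM in left sedentary libraries, and 1.51, 3.13 and 2.65 CPM against 1.67, 2.36 and 2.14 CPM on the right. Its lowest right library was an ELE one, and the log2 difference was 0.30 ± 0.19 (SE; adjusted p = 0.933).

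Nup188 of the inner ring had 10.1, 10.5 and 13.0 CPM against 9.29, 9.99 and 9.51 CPM on the left, without overlap, and 9.28, 12 and 9.84 CPM against 8.81, 11.3 and 8.95 CPM on the right, with overlap. Its log2 difference was 0.16 ± 0.10 (SE; adjusted p = 0.933). Ranbp2, the large filament protein that binds Ran and carries SUMO ligase activity, had 60.3, 79.2 and 76.5 CPM against 67.3, 53.8 and 63.3 CPM on the left, and 67.9, 67.5 and 69.1 CPM against 75.7, 64.8 and 64.2 CPM on the right. In CPM the ELE mean was higher on the left alone. On the right both means were 68.2 CPM, and the fitted estimate was positive. The log2 difference over both sides was 0.11 ± 0.08 (SE; adjusted p = 0.937).

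The paralogues Nup210l and Nup62cl were at 0 to 0.407 CPM and at 0.0350 to 0.520 CPM in the separate libraries, and at 0 to 1.09 CPM and 0 to 0.405 CPM in SIT. In the SIT comparison Nup210l had 34, 4 and 12 counts in ELE and 0 and 21 in sedentary libraries, with the groups overlapping. Nup62cl had 5, 2 and 10 counts in left ELE, 14, 30 and 4 in left sedentary, 17, 11 and 6 in right ELE and 3, 10 and 18 in right sedentary libraries, overlapping on both sides. The highest count of Nup210l was in a sedentary SIT library left out of the comparison (1.09 CPM, mouse NT7.2.4). Their log2 differences in the separate libraries were -1.17 ± 0.999 and -0.81 ± 0.69 (SE), at adjusted p = 0.942 for both, and rest on few reads. With 1 library left out, they ranged from -2.19 to -0.86 and from -1.10 to -0.40.

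**Figure D3:**
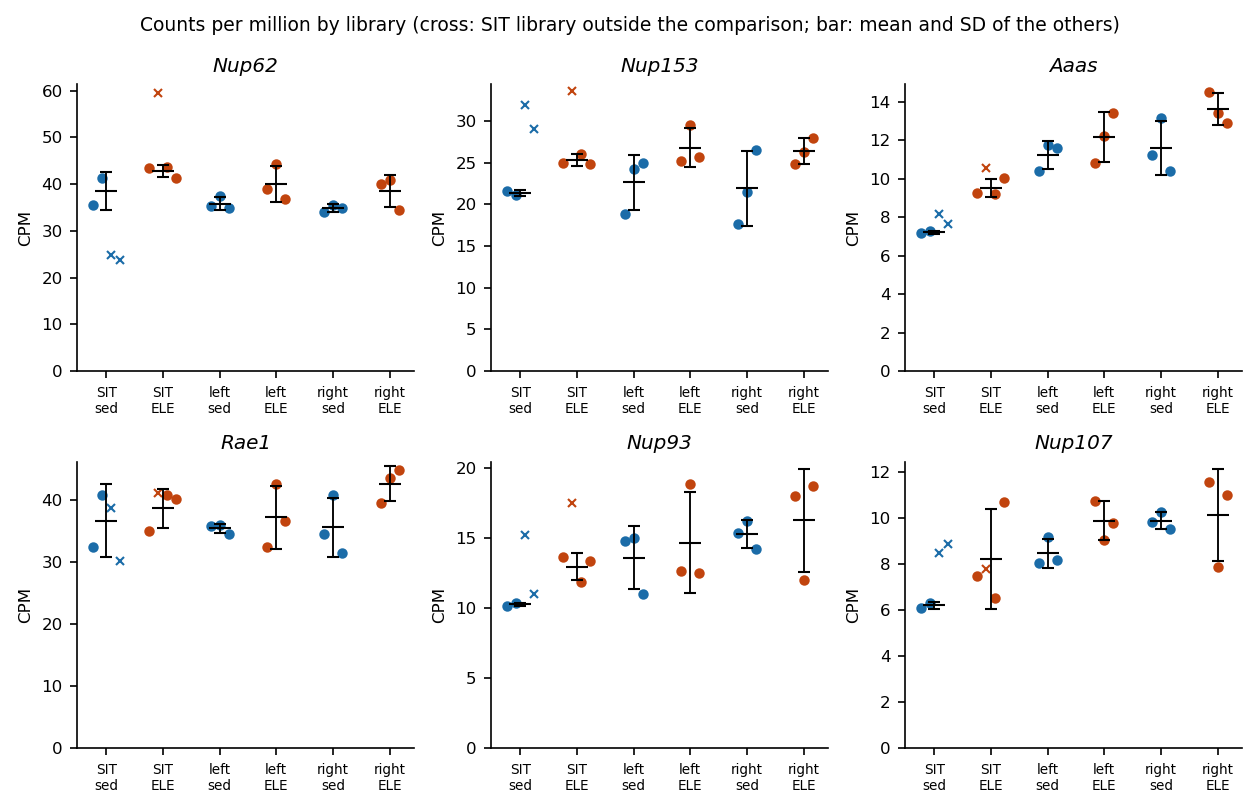
CPM of Nup62, Nup153, Aaas, Rae1, Nup93 and Nup107 in each library (y axis from 0; blue, sedentary; red, ELE; crosses, the 3 SIT libraries outside the SIT comparison; bar, mean and SD of the other libraries of the group). The Aaas values of the SIT libraries lie at 10.6 CPM or less and below most of the separate ones, and the 2 sedentary crosses of Nup62 lie at 24.8 and 23.7 CPM, under every other library.

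Fitted by themselves, the left libraries gave no call among 30 members, with 2.07% of 17750 genes called, and the right libraries none among 31, with 1.97% of 17570 genes called. DESeq2 called none on either side. No member on the left had an unadjusted p under 0.05 (3.94% of all genes did). On the right 1 member, Rae1, did (2.78% of all genes), with a log2 difference of 0.26 ± 0.12 (SE; adjusted p = 0.9998). On the left 24 of 30 estimates were positive (median 0.09), and on the right 19 of 31 (median 0.05). With 1 library left out, the median ranged from 0.06 to 0.15 on the left and from -0.02 (without TG9.2.1) to 0.09 on the right, where it thus changed sign. ELE and sedentary values were apart for 3 members on the left (Nup153 and Nup188, higher in ELE, and Nup37, lower), where 10.8% of all genes were apart, and for none on the right, where 7.69% were.

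The difference between the hemispheres was tested as an interaction. None of the 31 members was called by edgeR or DESeq2, with 2.20% of all genes called by edgeR, and the values of the somatic pore members ran from -0.25 to 0.49. The difference between the isolations, the SIT effect less the mean of the left and right effects, passed for none of the 31, with 4.15% of 20345 genes called. Nupl2 came closest (0.41 ± 0.20, SE; adjusted p = 0.982). It was estimated higher in ELE in SIT (0.30) and lower in the separate libraries (-0.10), and it was called in this test by DESeq2. No member had an unadjusted p under 0.05 in either test with edgeR.

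With all 8 SIT libraries, Nup62 was called higher in ELE, 1 of the 31 members, while 2.29% of 17531 genes were called higher. Its values were 43.5, 43.7, 41.4 and 59.5 CPM in ELE and 35.6, 41.3, 24.8 and 23.7 CPM in sedentary mice. The groups did not overlap, and the log2 difference was 0.60 ± 0.20 (SE; adjusted p = 0.470). Both lowest values came from the NT7.2 mice, whose libraries were high in mitochondrial counts and in interneuron and microglia markers, and the highest was that of the ELE mouse left out, NT6.304. Once the NT7.2 mice were set aside, the call was lost, with a log2 difference of 0.29. Over all 8 libraries, 6 of 6 interneuron, 6 of 6 microglia, 5 of 5 endothelial, 4 of 5 choroid plexus and 2 of 6 oligodendrocyte markers were called lower in ELE, where 5.41% of all genes were, and 1 of 6 astrocyte and 1 of 6 excitatory neuron markers higher. In the NT7.2 libraries the endothelial markers summed to 20.4 and 20.7 CPM, against at most 4.89 CPM in the other SIT libraries, and the oligodendrocyte markers to 4427 and 5020 CPM, against at most 3834 CPM in any other library. The part of these markers in the difference was not tested. Values of Aaas, Sec13 and Nup54 were likewise apart between all 4 ELE and all 4 sedentary libraries, making 4 members of 31, where 4.55% of all genes were apart. Mouse numbers beginning with NT7.2 were all sedentary and those beginning with TG7.4 all ELE, so that what these numbers stand for and exercise cannot be told apart except among the NT6 mice. In the 2 ELE and 2 sedentary NT6 mice, Nup93 alone was called (log2 difference 0.60, adjusted p = 0.648), where 3.59% of all genes were called higher. The ELE mouse that this adds, NT6.304, had 17.5 CPM. In the separate libraries Nup93 had 12.7, 12.5 and 18.8 CPM in left ELE and 15, 14.8 and 11 CPM in left sedentary libraries, and 12, 18.7 and 18.0 CPM in right ELE and 14.3, 16.2 and 15.4 CPM in right sedentary libraries. ELE and sedentary values overlapped on both sides there.

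Choroid plexus markers were lower in ELE libraries, with 3 of 5 called in SIT (2.11% of all genes were called lower), 2 of 5 in the separate libraries (1.21%), 5 of 5 on the right (1.23%) and none on the left. Of the other cell types' markers, 1 of 6 interneuron markers was called lower in SIT, and on the right 2 of 5 endothelial and 1 of 5 microglia markers were called lower and 1 of 6 interneuron markers higher. The choroid plexus markers summed to between 17.3 and 1274 CPM in the 12 separate libraries. The part of these markers in the values of the pore genes was not tested.

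The isolations themselves were also compared. The comparison was chosen once values of these genes were known. The 5 SIT libraries of the study's comparison were set against the 12 separate libraries, with 1 mean per group and each group given equal weight. Of the 31 members, 9 were called lower in SIT, where 9.96% of all genes were, and none was called higher, where 4.72% were. An adjusted p under 0.05 was reached by 11 members, all lower in SIT, against 21.1% of all genes. The values of 6 members did not overlap between the isolations, against 7.01% of all genes. Estimates were negative for 24 of 31 members, with a median of -0.17, while the median of all genes was -0.02. With 1 library left out, the members' median ranged from -0.26 (without NT6.306) to -0.13 (without TG7.4.2).

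The members called lower came from 5 groups. They were Tpr in the nuclear basket (1 of 3), Nup214 and Ranbp2 in the cytoplasmic filaments (2 of 4), Pom121, Aaas and Nup210 in the membrane ring (3 of 4), Nup205 in the inner ring (1 of 5), and Nup133 and Nup107 in the Y complex (2 of 9). In the central channel and the pair of Nup98 and Rae1, no member was called. Gm49336, which holds the coding sequence of Nupl1 and has 12748 bases of exon, was called higher in SIT, at 54.4 to 69.4 CPM against 35.8 to 51.2 CPM in the separate libraries. The ranges were apart, and the log2 difference was 0.42 ± 0.07 (SE; adjusted p = 0.000418). Nup50 and Nup93 were also lower at an adjusted p of 0.0320 and 0.0386 but by less than 1.31-fold.

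Tpr (chromosome 1, GRCm38 150392838 to 150449935), the filament of the nuclear basket, had 37.3, 37.9, 30.7, 31.7 and 40.9 CPM in the SIT libraries. In the separate libraries it had between 50.4 and 65.0 CPM, with a median of 57.3. None of these 5 values reached the separate range, and the log2 difference was -0.70 ± 0.08 (SE; adjusted p = 1.9e-05). With all 8 SIT libraries, the highest value of Tpr was 64.8 CPM, inside the separate range. Nup214 (chromosome 2, 31974436 to 32053975), the filament protein with 46 FG dipeptides, had 12.9, 15.7, 14.3, 13.5 and 14.0 CPM in SIT against 20.3 to 25.1 CPM (median 21.9). These ranges were again apart, with a log2 difference of -0.67 ± 0.08 (SE; adjusted p = 1.43e-05). With all 8 SIT libraries, the highest value of Nup214 was 27.1 CPM, above every separate library.

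Pom121 (chromosome 5, 135376141 to 135394546) had 64.3, 64.6, 62.8, 66.2 and 61.8 CPM in SIT against 81.6 to 105 CPM (median 93.5) in the separate libraries. These SIT values lay within a narrow band, and the log2 difference was -0.52 ± 0.07 (SE; adjusted p = 2.49e-05). Aaas (chromosome 15, 102338252 to 102350771) had between 7.17 and 10.0 CPM in SIT and between 10.4 and 14.5 CPM in separate libraries. These ranges did not meet, although ELE libraries were the upper ones in SIT, and the log2 difference was -0.55 ± 0.09 (SE; adjusted p = 0.000296). With all 8 SIT libraries, the highest value of Aaas was 10.6 CPM, and the ranges overlapped.

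Ranbp2 had 51.4, 56.5, 36.9, 39.1 and 47.2 CPM in SIT against 53.8 to 79.2 CPM (median 67.4), so that 1 SIT library reached into the separate range. Its log2 difference was -0.57 ± 0.10 (SE; adjusted p = 0.000421). Nup205, Nup133, Nup210 and Nup107 had log2 differences of -0.47 ± 0.10, -0.48 ± 0.11, -0.40 ± 0.09 and -0.43 ± 0.12 (SE), at adjusted p-values of 0.00162, 0.00309, 0.00516 and 0.0183. The ranges were apart for Nup205 (6.57 to 7.15 CPM against 8.23 to 10.7) and Nup133 (9.49 to 15.1 against 15.5 to 22.8), and they overlapped for Nup210 and Nup107.

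Of the 22 members not called, 15 had negative estimates. In the groups with calls, these included Nup188 (-0.30 ± 0.13, SE), Ahctf1 (-0.29 ± 0.12), Nup160 (-0.24 ± 0.18), Nup43 (-0.23 ± 0.19) and Ndc1 (-0.21 ± 0.09), while Seh1l (-0.05 ± 0.09), Nup155 (-0.0012 ± 0.09) and Sec13 (0.02 ± 0.08) were near 0. In the groups without a call, the log2 difference was 0.12 ± 0.06 (SE) for Nup62, 0.02 ± 0.08 for Nup54, -0.0030 ± 0.08 for Rae1 and -0.16 ± 0.07 for Nup98. Nup35 of the inner ring was estimated higher in SIT (0.26 ± 0.09, SE; adjusted p = 0.0507).

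Within ELE mice alone, 7 members were called lower in SIT (8.17% of all genes) and 1 higher, Nupl2 (4.31% of all genes). Within sedentary mice alone 10 were called lower (9.74% of all genes). With all 8 SIT libraries, the members' median was -0.09, 7 had an adjusted p under 0.05 (17.1% of all genes) and 0 had ranges apart from the separate ones (2.45% of all genes). Of the 7, Nup35 was higher in SIT (log2 difference 0.24, adjusted p = 0.0384). Of the members, 5 were called lower (6.47% of all genes), namely Tpr, Nup214, Ranbp2, Aaas and Nup133, while Pom121, at -0.39, was just short of the fold threshold with an adjusted p of 0.00139. In NT7.2.3 and NT7.2.4, Nup205 had 16.3 and 11.1 CPM and Nup210 25.1 and 18.5 CPM, above every other SIT library.

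The length of the exons moved with this difference over the whole table, and the longest members had the lowest median. Among members with at least 9000 bases of exon, 5 of 8 were called lower in SIT, and their median log2 difference was -0.44. From 6000 to 9000 bases, 1 of 5 was called and the median was -0.24, and from 3000 to 6000 bases 2 of 13 were called and the median was -0.05. Among the 5 members under 3000 bases, 1 was called, Aaas, and the median was -0.11, so that the members' medians were not in order of length. Over all protein-coding genes tested, the medians were 0.08 under 3000 bases, -0.03 from 3000 to 6000, -0.10 from 6000 to 9000 and -0.16 from 9000 bases, and 6.37%, 10.2%, 14.7% and 20.5% of the genes were called lower in SIT. Nup155 (11951 bases) and Nup98 (12602 bases) were long and not called, with log2 differences of -0.0012 and -0.16.

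Other cells' markers differed too. The astrocyte markers were called lower in SIT for 4 of 6 genes, the interneuron markers higher for 4 of 6, and the oligodendrocyte and microglia markers higher for 2 of 6 each. Of the excitatory neuron markers, 1 of 6 was called, Camk2a, which was lower. The share of counts on mitochondrial genes was 0.245% to 0.523% in the 5 SIT libraries and 0.0704% to 0.122% in the separate ones. The part of exon length, of these cell types and of the mitochondrial share in the pore genes' difference was not tested. No SIT mouse shared its number up to the last point with a separate mouse (NT6, NT7.2 and TG7.4 against TG7.3, TG9.1 and TG9.2), so that isolation and group of mice cannot be told apart.

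**Figure D4:**
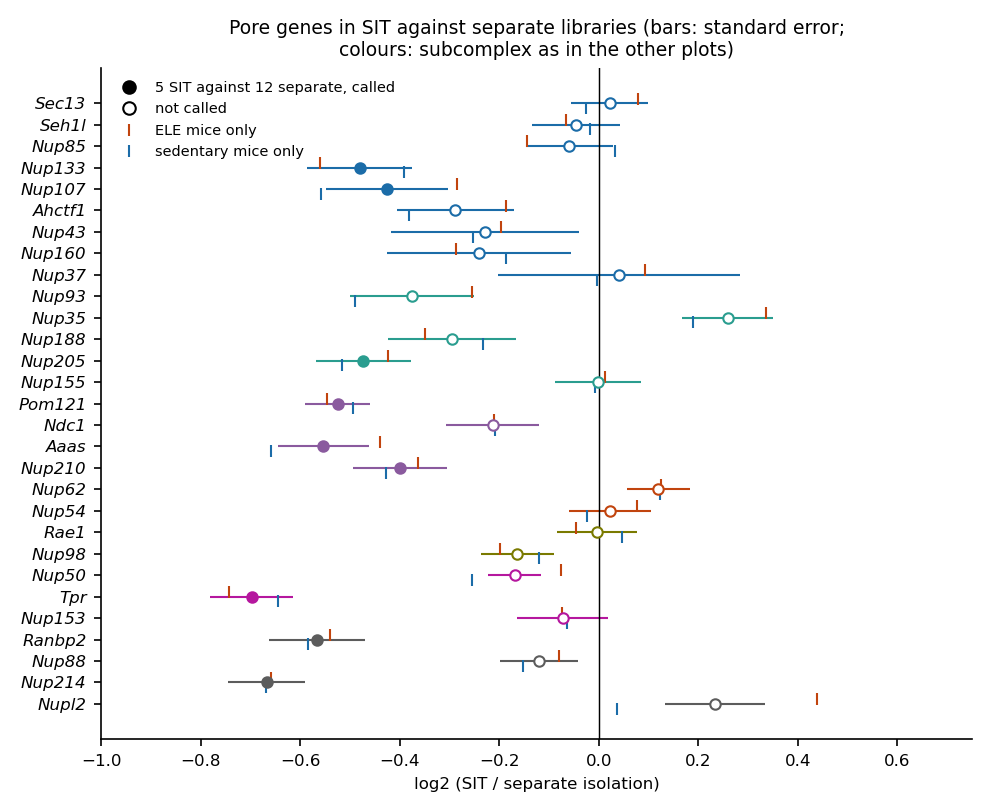
Log2 difference between the 5 SIT and the 12 separate libraries (x axis; point, edgeR estimate; bar, standard error) for 29 members, filled where called. Tpr (-0.70) and Nup214 (-0.67) lie farthest left. Red and blue ticks give the estimates within ELE and within sedentary mice. These are parts of the same libraries and no independent check.

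The genes that work with the pore were counted from lists. Of 23 importins and exportins, 2 were called higher in ELE in SIT, where 1.54% of all genes were. They were Tnpo1 (38.3 against 29.2 CPM, log2 difference 0.39, adjusted p = 0.905), the import receptor of many RNA-binding proteins, and Xpo4 (10.8 against 7.19 CPM, log2 difference 0.59, adjusted p = 0.905), an exportin. None of the 6 Ran cycle genes, the 11 mRNA export genes and the 10 genes of the lamina and inner membrane was called there. In the separate libraries, over both sides and on each side, none of these 50 genes was called. Xpo4 was also called in the test of the difference between isolations (0.68, adjusted p = 0.982), where it was the only one of the 50. With all 8 SIT libraries, Alyref, an adaptor of mRNA export, was called higher in ELE (45.8 against 35.1 CPM, adjusted p = 0.519), while Tnpo1 (-0.19) and Xpo4 (0.08) were not called.

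Rangap1 encodes the activator of the Ran GTPase that sits on the cytoplasmic filaments, and the nuclear tag of the NuTRAP allele carries part of it, so reads of the tag and of the endogenous gene cannot be told apart. It had between 448 and 879 CPM in the SIT libraries and between 977 and 1340 CPM in the separate ones. Its log2 difference between ELE and sedentary mice was 0.14 in SIT, 0.03 in the separate libraries, 0.08 on the left and -0.02 on the right, and it was not called in any of them. Between isolations it was lower in SIT (681 ± 80.8 against 1142 ± 120 CPM, SD, n = 5 and 12; log2 difference -0.77 ± 0.08, SE; adjusted p = 7.73e-06). Of the other 49 genes of these lists, 1 was called between the isolations, where 14.7% of all genes were called in either direction. It was Kpna4, an importin alpha, which was higher in SIT (126 against 90.9 CPM, adjusted p = 4.98e-05). The lamina and inner membrane genes had a median log2 difference of -0.20 between isolations, with 0 of 10 called.

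The FG repeats were counted as a sequence feature that the choice of members did not use. In the longest annotated translation of each member, Nup214 had 46 FG dipeptides, Nup98 41, Nup153 29, Pom121 24, Ranbp2 20, Nupl1 and Nupl2 11 each, Nup54 8 and Nup62 6, and the others 5 or fewer. Of the 8 members with 6 or more that were tested, 7 had a positive ELE estimate in SIT (median 0.12), and 6 in the separate libraries (median 0.08). The 23 others had medians of 0.08 and 0.05, with 18 and 16 positive. Between isolations, Nup214, Pom121 and Ranbp2 were among those called lower in SIT, and Nup62, Nup54, Nup153, Nup98 and Nupl2 were not.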

How the data were processed

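RNA bound to tagged ribosomes was sequenced with a directional poly(A) kit from 20 hippocampal samples, 1 mouse each. The authors deposited raw counts of read pairs per gene. Per the study's methods and the submitters' processing notes, reads were aligned to GRCm38 with STAR 2.7.3a, duplicates were removed with Picard 1.87, and pairs were counted on exons by strand with summarizeOverlaps. FastQC 0.11.9, R 4.1.0 and DESeq2 1.32.0 are also listed in those notes. The columns carry mouse numbers, which were put in groups through the study's list of mouse numbers. The 24 columns of a second table, from wild-type mice, matched no label and were not used. The authors' own comparison tables hold fold changes and p-values. None of these were used. Only the mean normalized counts of the SIT lists were read, to find which 5 SIT libraries the study compared: of 24 possible sets of libraries, 1 matched all 633 means and no other matched more than 1.

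Counts were tested with edgeR 4.0.16 (quasi-likelihood test, TMM, filterByExpr, limma 3.58.1, R 4.3.3) with Benjamini-Hochberg adjustment over all genes tested. Following the study's methods, a gene was called where its log2 fold change exceeded 0.3875 in size with an unadjusted p below 0.05. The slightly lower fold threshold in a figure legend of the study was not used. DESeq2 1.42.0, other size factors, no filter, other sets of libraries, a replicate block and leaving out each library were alternatives. In simulated counts, 200 genes changed by 1 on the log2 scale were recovered at an adjusted p under 0.05 in 76.5% of cases for SIT (17818 genes), 93.5% for the separate libraries (18189 genes), 84.0% for the left (17774 genes), 84.5% for the right (17542 genes), 47.5% for the hemisphere interaction (18188 genes) and 84.0% for the comparison of isolations (18570 genes). Of the genes passing, 1.92%, 2.60%, 2.89%, 4.52%, 3.06% and 5.62% were false, in the same order. For ELE in SIT, the estimates of the somatic pore members lay between -0.23 and 0.41. Recovery of changes of that size was not measured. In the simulation for the isolations, every gene had the same dispersion (extra spread between libraries).

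Gene symbols, exon lengths and translations came from the GENCODE annotation of GRCm38, which held 55154 of the 55335 gene identifiers. FG dipeptides were counted in these translations, although RefSeq proteins had been planned. For the member of each group with the smallest p in SIT or in the 12 separate libraries, values are given in every library of the comparison that named it, and for some also in the others. Members called between isolations were described in addition, after their values were seen, as were Gm49336 and the members named as not called there. The members and lists were chosen with earlier results of these data known. The p-values measure the spread between mice of a group.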

Additional observations from a re-analysis of the deposited data

Results flagged for a closer look

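In groups of 4 SIT libraries, 7 of 62 sets of values of a member had 1 library far from the other 3 by Dixon's test at the 95% level, where chance gives about 1 in 20. Of these, 3 came from the ELE mouse NT6.304, which is outside the SIT comparison. It had 59.5 CPM of Nup62 against 41.4 to 43.7 CPM in the other ELE mice, 33.6 CPM of Nup153 against 24.8 to 26.1 CPM, and 88.6 CPM of Pom121 against 62.8 to 64.6 CPM. The sedentary mouse NT7.2.3, also outside the comparison and high in mitochondrial counts, had 15.2 CPM of Nup93 against 10.2 to 11 CPM in the other sedentary mice, and 7.04 CPM of Nup160 against 4.13 to 4.61 CPM. Within the comparison, the ELE mouse TG7.4.2 had 9.49 CPM of Nup133 against 14.6 to 15.2 CPM, and the ELE mouse NT6.303 had 35.1 CPM of Rae1 against 40.2 to 41.1 CPM.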

How the results depend on the processing

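Of 765 log2 differences of named members under an alternative, 721 kept their direction and side of the threshold, 28 reversed, 12 were no longer called and 4 became called. With all 8 SIT libraries, 1 member was called for ELE in SIT (Nup62), 1 in the test of the difference between isolations and 5 between isolations, and Nup210l reversed to -0.74 in SIT. With the NT6 mice alone 1 was called in SIT (Nup93). The count over all 8 SIT libraries fell to 0 without the 2 libraries high in mitochondrial counts. At an unadjusted p alone, 2 members passed in the separate libraries and 1 on the right. Over all 8 SIT libraries 3 of 31 did, where 1590 of 17531 genes did. DESeq2 called 1 member in the difference between isolations (Nupl2). Without the filter on low counts, the log2 fold change of Ranbp2 in ELE against sedentary, right hippocampus, was -0.000542. Whether the first parts of the mouse numbers pair the samples was not settled. For TG7.3, TG9.1 and TG9.2, correlations of deviations were 0.181, 0.0158 and 0.100 on the left and 0.210, -0.0694 and -0.0896 on the right. The highest correlations with a mouse of another number were -0.00181, 0.0607 and -0.0189 on the left. On the right they were 0.0367, 0.0542 and 0.269. A replicate block by these numbers called 0 members in the separate libraries, on either side and in the hemisphere interaction, and reversed Nup62cl on the right to 0.11.

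Leaving out 1 library at a time gave 1 to 3 members called over all 8 SIT libraries, 7 to 10 between isolations, 0 to 2 in the difference between isolations (Nupl2 and Ahctf1 without TG7.4.2, Nupl2 without TG7.3.3, Nup210l without NT6.306) and 0 to 1 in the hemisphere interaction (Nup210l without TG9.2.2), in the separate libraries (Nup43 without TG9.1.3), on the left (Nup210l without TG9.2.2) and on the right (Nup153 without TG9.2.3). In SIT, Nup188 ranged from -0.14 to 0.26, Rae1 from -0.079 to 0.25, Nup210l from -0.46 to 7.01 and Nup62cl from -1.46 to 6.01. In the separate libraries Nup93 ranged from -0.00068 to 0.18, Nup43 from 0.20 to 0.42, Nup107 from 0.091 to 0.21, Nup188 from 0.098 to 0.22 and Ranbp2 from 0.059 to 0.16. On the left, Nup93 ranged from -0.11 to 0.21, Nupl2 from -0.028 to 0.087 and Rae1 from -0.040 to 0.15. On the right, the ranges were -0.065 to 0.19 for Nup107, 0.14 to 0.43 for Nup153, -0.022 to 0.22 for Nup188, -2.55 to 0.089 for Nup210l, -0.62 to 0.59 for Nup62cl, -0.030 to 0.27 for Nup93 and -0.043 to 0.080 for Ranbp2. Between isolations, Nup107 ranged from -0.54 to -0.35, Nup133 from -0.53 to -0.39 and Nup210 from -0.45 to -0.34. The cause was not tested for any of these changes. The comparison of isolations with its alternatives, and those of the count over all 8 SIT libraries, were chosen after seeing the data.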
